A study of Mus musculus with 6 samples.

Results

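A set of 10 genes known as markers of neutrophils was followed across tumors of mice given laser light alone or laser light with a photosensitizer. They were S100a8, S100a9, Lcn2, Mmp9, Cxcr2, Csf3r, Retnlg, Trem1, Fpr1 and Fpr2, chosen by name as known marker genes, with earlier results of these data known. The table listed 21899 genes, and all 10 of these were in it and passed the filter on low values, a mean of at least 1 FPKM (fragments per kilobase of exon, scaled to the mapped fragments of the sample), which left 10853 genes to test. S100a9 and Lcn2 were also among the genes that the study itself picked from these libraries. The study reports both genes as lowered by both treatments. Here both were higher in SePC-La than in Laser (log2 differences of 2.71 and 1.39), with no overlap. In PC-La against Laser the groups overlapped (0.86 and -0.28). The study also lists PCR primers for these genes, so its values may come from another measurement.

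The tumors grew from LLC-luc cells, a mouse Lewis lung carcinoma line that carries luciferase, injected under the skin of male C57BL/6 mice. RNA was sequenced in 3 groups with 2 samples each, and every group received the laser, so no tumor without irradiation was analysed here. Laser tumors had light alone, and the methods state that these mice were given saline. PC-La tumors had phycocyanin, a light-absorbing protein of the cyanobacterium Spirulina platensis, and SePC-La tumors had phycocyanin extracted from Spirulina grown with selenium. Per the labels, the agents were injected every 5 days and light of 620 nm was given for 10 min, starting 4 h after an injection, while the methods of the study give another wavelength and interval. The tumors grew under the skin and not in the lung. The design text calls the experiments duplicates, as the labels show. The methods of the study also name 2 samples per group, whereas its results text describes another number. Nothing in the labels says whether the 2 samples of a group came from separate mice, so the p-values measure the spread between these samples, which may be technical.

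Neutrophils are short-lived white blood cells that leave the blood for inflamed or injured tissue, and mouse tumors often contain them. They carry granules with preformed proteins, sense chemokines through Cxcr2 and bacterial or mitochondrial formylated peptides through Fpr1 and Fpr2, and depend on the growth factor G-CSF acting on Csf3r. None of these genes belongs to neutrophils alone. Monocytes and macrophages also express several of them, among them Fpr1, Fpr2, Trem1, Csf3r, S100a8 and S100a9, and epithelial cells can make Lcn2 and Mmp9.

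The 10 genes lie on 6 chromosomes, and 4 of them form 2 neighbouring pairs (GENCODE M21, GRCm38). S100a8 (ENSMUSG00000056054, chr3:90668978-90670035, plus strand) and S100a9 (chr3:90692632-90695721, minus strand) have starts 26743 bases apart. Fpr1 (chr17:17876471-17883940, minus strand) and Fpr2 (chr17:17887824-17893952, plus strand) point away from each other, with starts 3884 bases apart. The other 6 lie at chr2:32384633-32388252 (Lcn2, minus), chr2:164940780-164955850 (Mmp9, plus), chr1:74153989-74161246 (Cxcr2, plus), chr4:126024550-126044440 (Csf3r, plus), chr16:48872621-48874496 (Retnlg, plus) and chr17:48232768-48246924 (Trem1, plus). Values are sums over all exons of a gene, and reads that match both Fpr1 and Fpr2, which are paralogs, may have been split or dropped by the counting.

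The promoters of both pairs are shown because S100a8 and S100a9 were highest in both SePC-La samples, whereas Fpr1 and Fpr2 were lowest in both PC-La samples. Each run is the 250 bases before the RefSeq start (GRCm38.p6), 5′ to 3′ on the strand of the gene. Capitals mark matches, on either strand, to TTNNGNAA (C/EBP factors), GAGGAA (PU.1) and TATAAA (the TATA box).
S100a8, chr3:90668821-90669070, plus strand: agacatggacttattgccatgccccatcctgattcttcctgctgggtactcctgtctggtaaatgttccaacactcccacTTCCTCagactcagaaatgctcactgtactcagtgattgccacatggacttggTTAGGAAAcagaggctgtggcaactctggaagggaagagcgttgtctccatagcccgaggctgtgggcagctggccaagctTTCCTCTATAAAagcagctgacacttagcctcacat
S100a9, chr3:90695722-90695971, minus strand: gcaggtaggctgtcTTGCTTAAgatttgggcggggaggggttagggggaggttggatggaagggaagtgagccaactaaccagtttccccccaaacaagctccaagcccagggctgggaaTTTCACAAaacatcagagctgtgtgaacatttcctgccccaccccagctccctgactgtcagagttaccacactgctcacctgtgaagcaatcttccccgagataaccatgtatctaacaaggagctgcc
Fpr1, chr17:17883940-17884189, minus strand: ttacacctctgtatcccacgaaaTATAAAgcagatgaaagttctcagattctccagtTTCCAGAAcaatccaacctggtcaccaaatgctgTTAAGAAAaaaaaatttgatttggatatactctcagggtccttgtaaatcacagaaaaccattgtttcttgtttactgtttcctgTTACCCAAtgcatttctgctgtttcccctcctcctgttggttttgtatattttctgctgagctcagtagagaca
Fpr2, chr17:17887574-17887823, plus strand: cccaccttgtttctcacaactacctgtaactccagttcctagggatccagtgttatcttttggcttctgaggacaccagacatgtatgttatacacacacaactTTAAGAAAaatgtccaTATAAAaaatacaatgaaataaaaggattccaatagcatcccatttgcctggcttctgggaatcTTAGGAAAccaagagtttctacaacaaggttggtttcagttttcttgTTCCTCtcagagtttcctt

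RefSeq promoters were matched for 9 of the 10 genes, Mmp9 being the other one. In S100a8 the C/EBP match lay 117 bases before the start, PU.1 matches lay 170 and 36 bases before it, and the TATA match 30 bases before it. S100a9 had C/EBP matches at 236 and 130 bases and neither of the other motifs. Fpr1 held C/EBP matches at 193, 159 and 74 bases and a TATA match at 227 bases. Fpr2 held C/EBP matches at 146 and 66 bases, a PU.1 match at 19 bases and a TATA match at 130 bases. Among the 9 promoters, 7 held the C/EBP letters, which 36.8% of 32851 promoters of the same length hold. PU.1 letters were in 6 of the 9, beside 23.3% of all promoters, and TATAAA was in 3 of the 9, beside 12.4%. No matches of different motifs overlapped within these 9 promoters. A match is a string of letters and not a bound site. The RefSeq starts of S100a8, Lcn2, Csf3r, Cxcr2 and Fpr1 lie inside the genes as GENCODE draws them. For Cxcr2 and Fpr1 they lie within a few bases of the edge.

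The depth was similar in all samples, at 14447792 to 17649489 reads recovered from the values, and the correlation of log2(FPKM + 1) between samples ran from 0.931 to 0.992. The Laser pair (0.946) was less alike than the PC-La pair (0.992) or the SePC-La pair (0.972). Differences were tested with limma on log2(FPKM + 1) over all genes. A gene met the criterion when its log2 fold change was over 1 in size with an unadjusted p under 0.05, the thresholds of the study. Genes said below to have risen or fallen in a comparison met it there. The criterion was met by 140 genes in PC-La against Laser, 74 in SePC-La against Laser and 323 in SePC-La against PC-La, and 0 genes passed a Benjamini-Hochberg adjusted p under 0.05 in any comparison of the limma fit. At an unadjusted p under 0.05 with any fold change, the counts were 627 (5.78%), 1318 (12.1%) and 2637 (24.3%) of the genes tested. An exact permutation test of 2 samples against 2 cannot give a two-sided p below 0.333. The p-values here rest on the model, which joins each gene's own spread within the 3 groups with that of all genes.

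The levels of the 10 genes spanned a wide range on the FPKM scale, which is per length and allows comparison between genes. S100a9 was highest with a mean of 132 FPKM over the 6 samples and S100a8 followed with 35.9. Retnlg and Mmp9 (both 12.3) and Csf3r (10.4) came next. Fpr2 (6.33), Lcn2 (5.10), Fpr1 (4.72), Trem1 (4.39) and Cxcr2 (3.17) were lowest. Neighbours in this order overlapped in their ranges over the samples, S100a8 (9.39 to 82.7) and S100a9 (14.1 to 300) included. The recovered reads behind a single value ran from 18, for Retnlg in PC-La 2, to 2732, for S100a9 in SePC-La 2, so that counting error is a larger part of the lowest values.

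**Figure D1:**
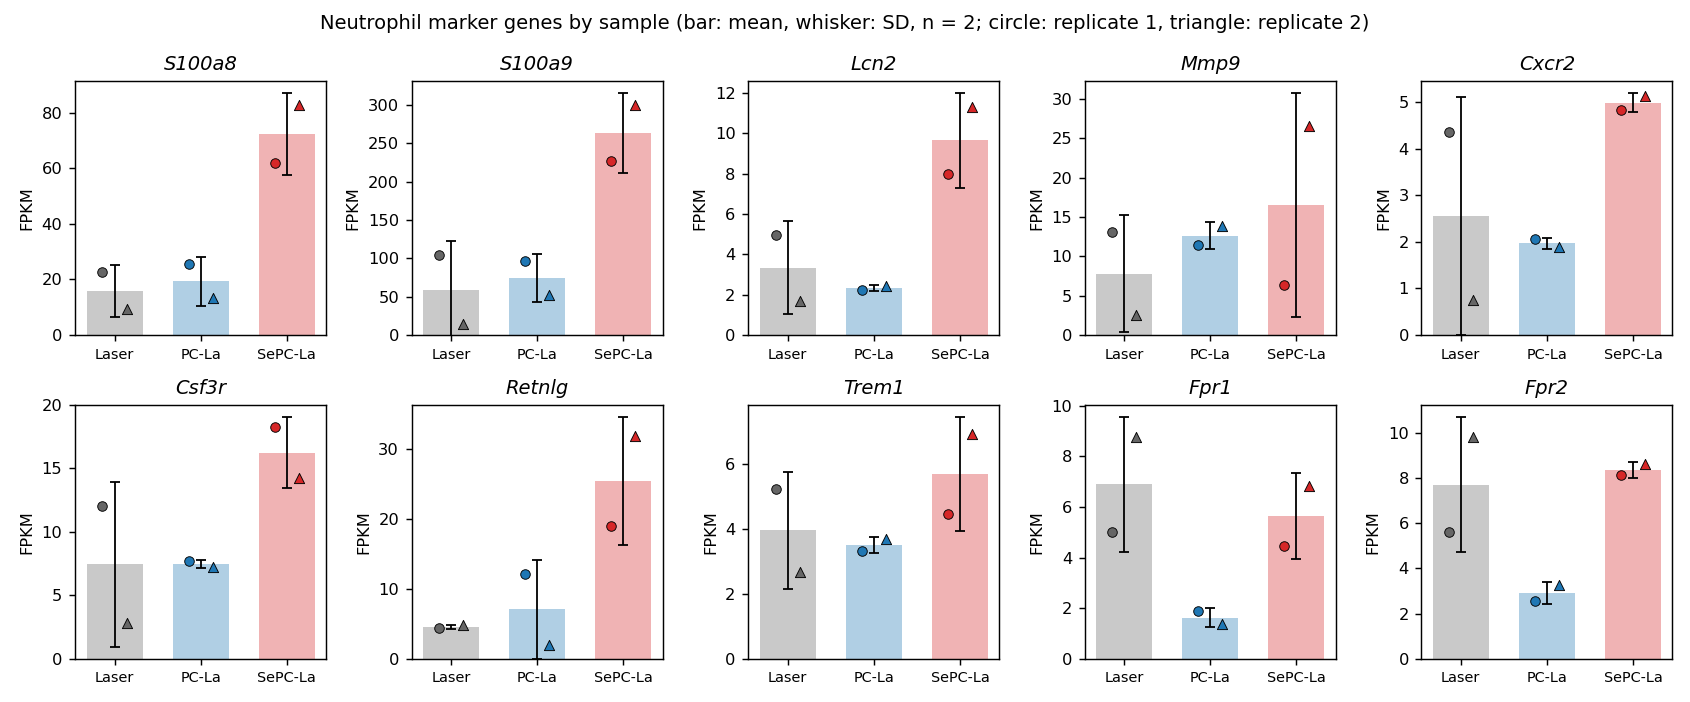
FPKM of each of the 10 genes in the 6 samples, with bars for the mean of a group, whiskers for the SD of its 2 samples (cut at 0 where they would pass below it), circles for replicate 1 and triangles for replicate 2. Both SePC-La samples were the 2 highest for S100a8, S100a9, Lcn2, Cxcr2, Csf3r and Retnlg, while Fpr1 and Fpr2 were lowest in both PC-La samples.

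The alarmin genes S100a8 and S100a9 encode the 2 subunits of calprotectin, a calcium-binding complex of the neutrophil cytosol. S100a8 had 22.6 and 9.39 FPKM for Laser, 25.6 and 13.2 for PC-La and 61.8 and 82.7 for SePC-La. Both SePC-La samples were above all other samples, and the Laser and PC-La samples overlapped. The mean in SePC-La was 72.3 ± 14.8 (SD, n = 2), 4.53 times that in Laser and 3.72 times that in PC-La. S100a8 rose on the log2 scale by 2.21 ± 0.48 (SE) against Laser (limma, Benjamini-Hochberg adjusted p = 0.376) and by 1.90 ± 0.48 against PC-La (limma, adjusted p = 0.134). It met the criterion in both comparisons under every alternative that was run except the one on adjusted p.

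S100a9 had 104 and 14.1 FPKM for Laser, 96.8 and 52.5 for PC-La and 226 and 300 for SePC-La. Again both SePC-La samples were the 2 highest, but the Laser samples differed by 7.39 times. S100a9 rose by 2.71 ± 0.96 against Laser (limma, adjusted p = 0.396). Against PC-La its log2 difference of 1.85 ± 0.96 did not meet the criterion (limma, adjusted p = 0.296), although the groups did not overlap. It met the criterion there without Laser 1, without Laser 2 and with the 4 samples alone. The call against Laser was lost without PC-La 1, PC-La 2, SePC-La 1 or SePC-La 2 (values of 2.51 to 2.91), and the value was 1.31 without Laser 2 and 4.11 without Laser 1. The ratio of S100a9 to S100a8 FPKM was 3.62 to 4.63 in 5 samples and 1.503 in Laser 2.

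The granule proteins behaved unlike each other. Lcn2, which encodes lipocalin 2, a protein that binds bacterial siderophores and so withholds iron, had 4.97 and 1.71 FPKM for Laser, 2.22 and 2.42 for PC-La and 7.995 and 11.3 for SePC-La. Both SePC-La samples stood above the rest, and PC-La fell between the 2 Laser samples. Lcn2 rose by 1.39 ± 0.38 against Laser (limma, adjusted p = 0.376) and by 1.67 ± 0.38 against PC-La (limma, adjusted p = 0.126). The call against Laser was lost without Laser 2 (0.82) or without SePC-La 2 (1.16), and the call against PC-La held without any 1 sample.

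Mmp9, the gelatinase of the tertiary granules, had 13.1 and 2.56 FPKM for Laser, 11.4 and 13.9 for PC-La and 6.41 and 26.6 for SePC-La. The highest and the second lowest sample were both SePC-La, a difference of 4.14 times within the group. Mmp9 met the criterion in no comparison: the log2 differences were 0.94 ± 0.88 for PC-La against Laser, 1.02 ± 0.88 for SePC-La against Laser and 0.073 ± 0.88 for SePC-La against PC-La.

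Retnlg, which encodes a secreted protein of the resistin-like family found in mouse neutrophils and bone marrow, had 4.40 and 4.78 FPKM for Laser, 12.1 and 2.03 for PC-La and 18.9 and 31.9 for SePC-La. Its Laser samples were closer to each other than those of the other 9 genes, whereas the PC-La samples differed by 5.96 times. Retnlg rose by 2.20 ± 0.70 against Laser (limma, adjusted p = 0.382) and by 2.02 ± 0.70 against PC-La (limma, adjusted p = 0.177). The first call was lost without Laser 1, Laser 2 or SePC-La 2 (values of 1.83 to 2.24). The second was lost without any 1 sample other than PC-La 1, with the lowest value, 0.97, without PC-La 2.

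Among the receptors, Cxcr2 and Csf3r were highest in both SePC-La samples but did not meet the criterion. Cxcr2, the receptor for the chemokines that draw neutrophils into tissue, had 4.36 and 0.744 FPKM for Laser, 2.06 and 1.89 for PC-La and 4.84 and 5.13 for SePC-La. The SePC-La samples were the 2 highest, with Laser 1 close below them and Laser 2 lowest by far. The log2 difference was 0.97 ± 0.50 against Laser (limma, adjusted p = 0.476) and 1.01 ± 0.50 against PC-La (limma, adjusted p = 0.264). Csf3r, the G-CSF receptor, had 12.1 and 2.84 FPKM for Laser, 7.68 and 7.24 for PC-La and 18.2 and 14.3 for SePC-La. SePC-La did not overlap either other group, both PC-La samples lay between the Laser samples, and the log2 difference was 1.27 ± 0.56 against Laser (limma, adjusted p = 0.432) and 1.02 ± 0.56 against PC-La (limma, adjusted p = 0.308). Without Laser 1 both receptors met the criterion against Laser (1.78 and 2.16), and without Laser 2 their values were 0.16 and 0.39. Without Laser 1 or without Laser 2 both met it against PC-La.

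Trem1, a receptor that amplifies inflammatory signals in neutrophils and monocytes, varied least between group means. It had 5.22 and 2.69 FPKM for Laser, 3.33 and 3.68 for PC-La and 4.46 and 6.94 for SePC-La. SePC-La lay above PC-La with no overlap, and the Laser samples spread over most of the range. The log2 differences were -0.089 ± 0.29, 0.46 ± 0.29 and 0.55 ± 0.29 for PC-La against Laser, SePC-La against Laser and SePC-La against PC-La.

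The formyl peptide receptors were lowest in both PC-La samples. Fpr1, the high-affinity receptor for N-formylated peptides, had 5.00 and 8.77 FPKM for Laser, 1.88 and 1.36 for PC-La and 4.44 and 6.84 for SePC-La. Fpr2, a related receptor that also binds serum amyloid A and annexin A1, had 5.60 and 9.84 FPKM for Laser, 2.57 and 3.25 for PC-La and 8.12 and 8.62 for SePC-La. In both genes the PC-La samples were the 2 lowest, Laser 2 was the highest, and Laser and SePC-La overlapped. The ratio of Fpr2 to Fpr1 FPKM was 1.12 in both Laser samples, 1.36 and 2.38 for PC-La, and 1.83 and 1.26 for SePC-La.

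Fpr1 fell in PC-La against Laser by 1.55 ± 0.29 on the log2 scale (limma, adjusted p = 0.430), and its mean in PC-La was 0.236 times that in Laser. It rose in SePC-La against PC-La by 1.32 ± 0.29 (limma, adjusted p = 0.126). Fpr2 fell in PC-La by 1.12 ± 0.24 (limma, adjusted p = 0.539) and rose in SePC-La against PC-La by 1.27 ± 0.24 (limma, adjusted p = 0.126). Against Laser, the SePC-La differences were -0.23 ± 0.29 for Fpr1 and 0.15 ± 0.24 for Fpr2. The Fpr2 call in PC-La was lost without Laser 2 (-0.76) or PC-La 1 (-0.99), and the Fpr1 call held without any 1 sample. Both comparisons with PC-La share the same 2 PC-La samples.

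**Figure D2:**
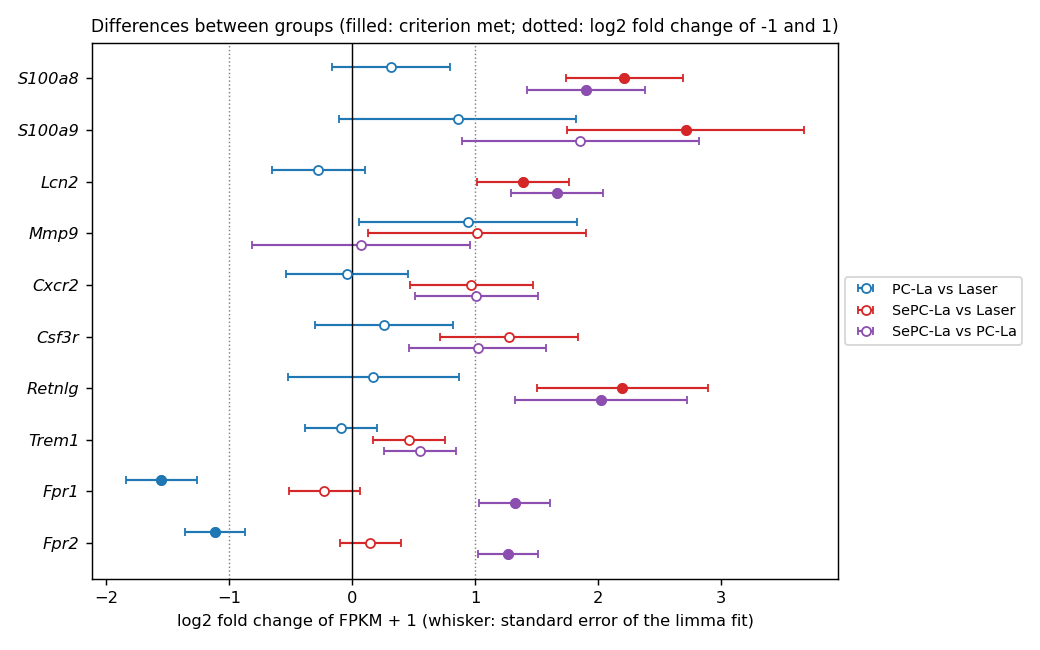
Log2 fold change of FPKM + 1 for each gene in the 3 comparisons, with whiskers for the standard error of the limma fit and filled symbols where the criterion was met. In SePC-La against Laser 4 genes were filled, in SePC-La against PC-La 5, and in PC-La against Laser Fpr1 and Fpr2 alone, both below -1.

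Counted over the 10 genes, PC-La against Laser gave 0 higher and 2 lower by the criterion, where 0.866% and 0.424% of all genes tested were called higher and lower. The groups did not overlap in 0 genes upward and in the same 2 downward, against 20.4% and 21.6% of all genes. The median log2 difference of the 10 was 0.065, and that of all genes was -0.00062. In SePC-La against Laser, 4 genes rose and 0 fell, where 0.544% and 0.138% of all genes were called. There, 6 of the 10 genes lay higher with no overlap and 0 lower, against 15% and 25.6% of all genes, and the median was 1.14 against -0.065 for all genes. In SePC-La against PC-La, 5 rose and 0 fell, where 1.18% and 1.8% of all genes were called. Over all genes that split of 128 higher and 195 lower was 166 and 149 with median-ratio scaling and 164 and 143 with quantile normalization. There, 9 of the 10 lay higher with no overlap and 0 lower, against 26% and 39.5% of all genes, and the median was 1.29 against -0.074. The 2 comparisons with SePC-La share the same 2 SePC-La samples and do not count as separate evidence.

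The spread within the Laser group bears on these counts. Laser 2 was the lowest of the 6 samples in 7 of the 10 genes (S100a8, S100a9, Lcn2, Mmp9, Cxcr2, Csf3r and Trem1) and the highest in Fpr1 and Fpr2. In 6 genes it was lower than Laser 1 by at least 2 times, most in S100a9 (7.39 times), Cxcr2 (5.87) and Mmp9 (5.09). Without Laser 2, 2 genes rose in SePC-La against Laser (S100a8 and S100a9) and the median difference was 0.45, and without Laser 1 the count was 5 and the median 1.98. Without SePC-La 2, S100a8 alone rose. Against PC-La, where the Laser samples enter only through the shared spread, leaving out any 1 sample gave 4 to 7 genes and medians of 1.08 to 1.45.

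**Figure D3:**
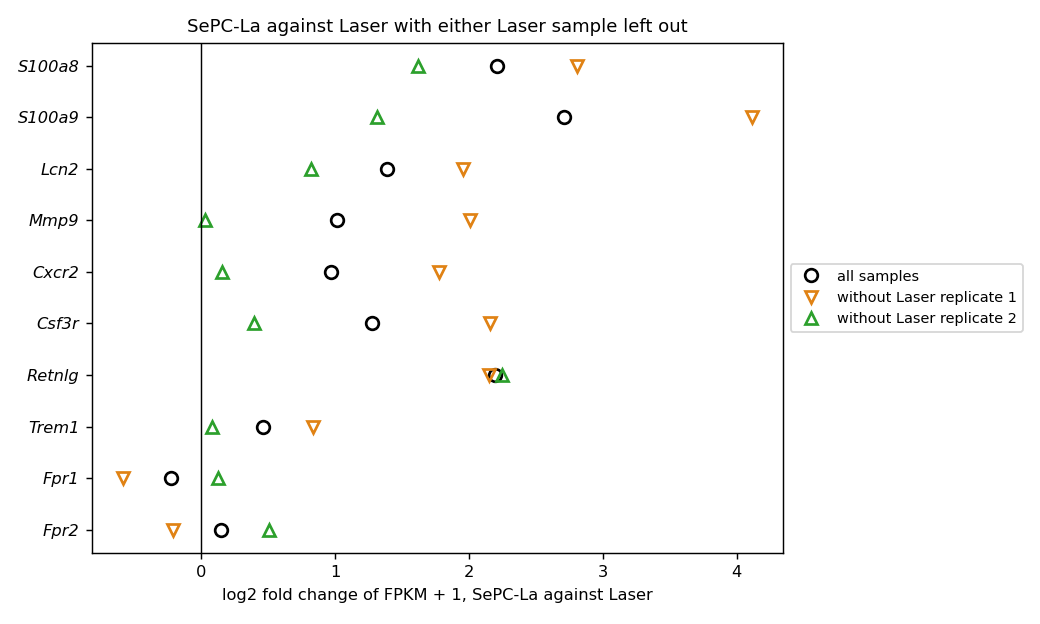
Log2 fold change of FPKM + 1 in SePC-La against Laser with all samples (circles), without Laser replicate 1 (downward triangles) and without Laser replicate 2 (upward triangles). Without Laser 2 the values of Mmp9, Cxcr2, Csf3r and Trem1 were 0.025, 0.16, 0.39 and 0.081, and Retnlg stayed between 2.15 and 2.24.

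Pearson's r of log2(FPKM + 1) between Fpr1 and Fpr2 was 0.931, and between either of them and the other 8 genes it ran from -0.342 (Mmp9 with Fpr2) to 0.464 (Lcn2 with Fpr2). Among the other 8 genes it ran from 0.307 (Mmp9 with Retnlg) to 0.973 (Cxcr2 with Csf3r), so the 2 ranges overlapped. These are descriptions over 6 samples that share groups and libraries. The mean of the 10 standardized values was 0.19 and -0.84 for Laser, -0.40 and -0.65 for PC-La and 0.59 and 1.13 for SePC-La.

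**Figure D4:**
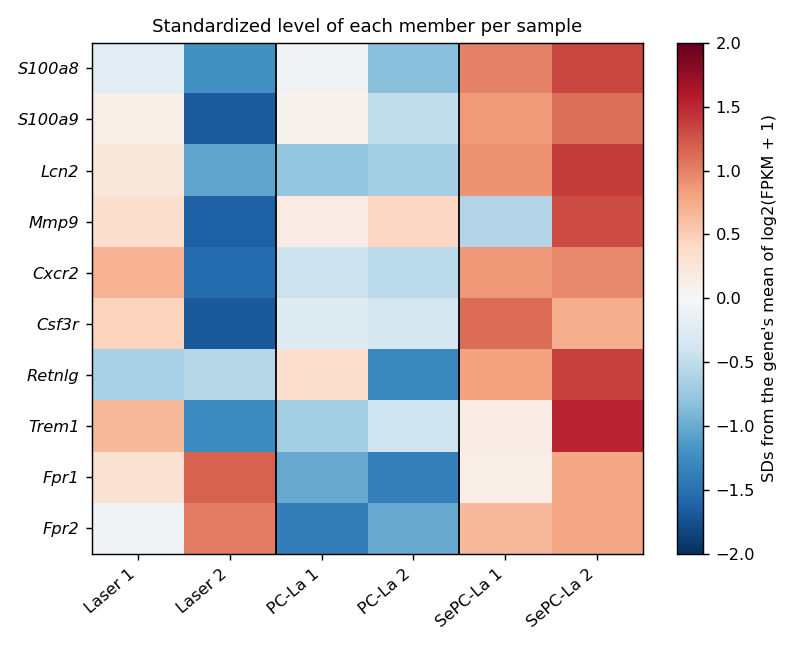
Level of each gene in each sample in SDs from its mean of log2(FPKM + 1) over the 6 samples, red above and blue below. The rows of Fpr1 and Fpr2 are red in Laser 2 and blue in both PC-La samples, and the rows of S100a8, S100a9, Lcn2, Cxcr2 and Csf3r are blue in Laser 2 and red in both SePC-La samples.

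The genes most like the mean standardized value of the 10, among the 7483 genes that averaged 5 FPKM or more, were Il1r2 (r = 0.998), Anp32b (0.996), Vps72 (0.994), Psmc5 (0.993), Rce1 (0.993), Zc3h12a (0.992), Cebpd (0.989), Cxcl1 (0.988), Pnrc1 (0.986) and Dhrs1 (0.985). Over these 6 samples, 47 genes had an r above 0.95. Il1r2, the decoy receptor for interleukin 1, had 10.0 and 4.96 FPKM for Laser, 6.81 and 5.74 for PC-La and 13.5 and 21.1 for SePC-La.

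The name of the group was checked against 30 other genes of neutrophils. The defining surface marker Ly6g was at 0.338 and 0 FPKM for Laser, 0.543 and 0.426 for PC-La and 0.514 and 0.912 for SePC-La, which is below the filter. The granule enzymes of immature neutrophils, Mpo and Elane, were listed at 0 in all samples but SePC-La 2, where they had 0.0167 and 0.0582 FPKM. In all, 12 of the 30 were below the filter, Camp, Ltf and Ngp among them. Levels of RNA in whole tumor cannot tell fewer cells of a type from less RNA per cell.

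Of these genes 18 were tested. In SePC-La against Laser 12 of the 18 lay higher with no overlap and 1 lower, against 15% and 25.6% of all genes. The median was 0.66, against -0.065 for all genes. By the criterion 5 rose and 0 fell, where 0.544% and 0.138% of all genes were called. The 5 were G0s2 (2.64), an inhibitor of lipolysis, Slpi (1.58), an inhibitor of neutrophil proteases, Stfa2l1 (1.495), Il1r2 (1.14) and Asprv1 (1.07). The count was 2 without Laser 2 and 1 without SePC-La 2. Against PC-La, 9 rose and 1 fell, where 1.18% and 1.8% of all genes were called. The median was 1.34, against -0.074 for all genes, and ran from 1.00 to 1.56 with any 1 sample left out. Those that rose were Slpi (2.56), the lectin receptors Clec4d (2.16) and Clec4e (1.37), Stfa2l1 (1.77), Ifitm6 (1.76), Hdc (1.67), Mmp8 (1.58), Asprv1 (1.42) and Il1r2 (1.302). Cybb, a subunit of the phagocyte oxidase, fell by 1.03. Genes of this list, those that rose included, need not belong to neutrophils alone. In PC-La against Laser, 2 fell and 0 rose, with a median of -0.29, where 0.424% of all genes were called lower and 0.866% higher.

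The 2 that fell in PC-La against Laser were lowest in both PC-La samples, as Fpr1 and Fpr2 were. Clec4d had 22.3 and 36.1 FPKM for Laser, 8.40 and 7.94 for PC-La and 39.0 and 40.9 for SePC-La, and fell by 1.68 ± 0.22 (limma, adjusted p = 0.406). Mmp8, the neutrophil collagenase, had 3.57 and 7.85, 1.504 and 1.46, and 6.96 and 5.90 FPKM in Laser, PC-La and SePC-La, and fell by 1.36 ± 0.30 (limma, adjusted p = 0.560). The list also held the abundant genes Itgb2 (mean of 74.7 FPKM) and Hp (16.9), which met the criterion in no comparison.

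The ligands of Cxcr2 were all tested, 5 of 5. In SePC-La against Laser all 5 differences were positive, and 4 ligands lay higher with no overlap, against 15% of all genes. The shares of all genes called in each comparison were those given above. Cxcl1 had 55.6 and 17.4 FPKM for Laser, 35.01 and 29.1 for PC-La and 80.4 and 131 for SePC-La, and rose by 1.68 ± 0.55 against Laser and by 1.66 ± 0.55 against PC-La. Cxcl2 had 31.6 and 6.74, 11.4 and 7.27, and 48.7 and 51.0 FPKM in Laser, PC-La and SePC-La, and rose by 2.32 ± 0.68 against PC-La. Cxcl3 had 15.3 and 2.19, 2.65 and 1.95, and 18.3 and 17.2 FPKM in the same order, and rose by 2.51 ± 0.75 against PC-La. In these 3 genes, as in their receptor, both SePC-La samples were above all others and Laser 1 was the next highest.

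Ppbp, a chemokine that platelets also store, had 15.4 and 6.70 FPKM for Laser, 1.36 and 1.91 for PC-La and 19.0 and 24.1 for SePC-La. It fell by 2.10 ± 0.36 in PC-La against Laser (limma, adjusted p = 0.430) and rose by 3.09 ± 0.36 in SePC-La against PC-La (limma, adjusted p = 0.0868). Cxcl5 had 13.8 and 1.40, 6.87 and 7.42, and 4.57 and 18.0 FPKM, and its groups overlapped in every comparison. Cxcl2 and Ppbp were among the genes that the study picked from these libraries. The study reports Ppbp as lowered by both treatments, and it lists PCR primers for Ppbp too. Here Ppbp lay higher in SePC-La than in Laser with no overlap. That difference of 0.99 ± 0.36 (limma, adjusted p = 0.388) did not meet the criterion.

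By the criterion, 1 ligand rose and 0 fell in SePC-La against Laser (median 1.38). Against PC-La, 4 rose and 0 fell (median 2.32). In PC-La against Laser, 1 fell and 0 rose (median -0.65). The first count was 5 without Laser 1 and 0 without Laser 2, PC-La 1, PC-La 2 or SePC-La 2, and its median was 2.49 without Laser 1 and 0.44 without Laser 2. The second count was 1 without PC-La 1, PC-La 2 or SePC-La 2 and 2 without SePC-La 1. The third was 3 without Laser 2, where its median was -1.68, and the median was 0.39 without Laser 1.

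**Figure D5:**
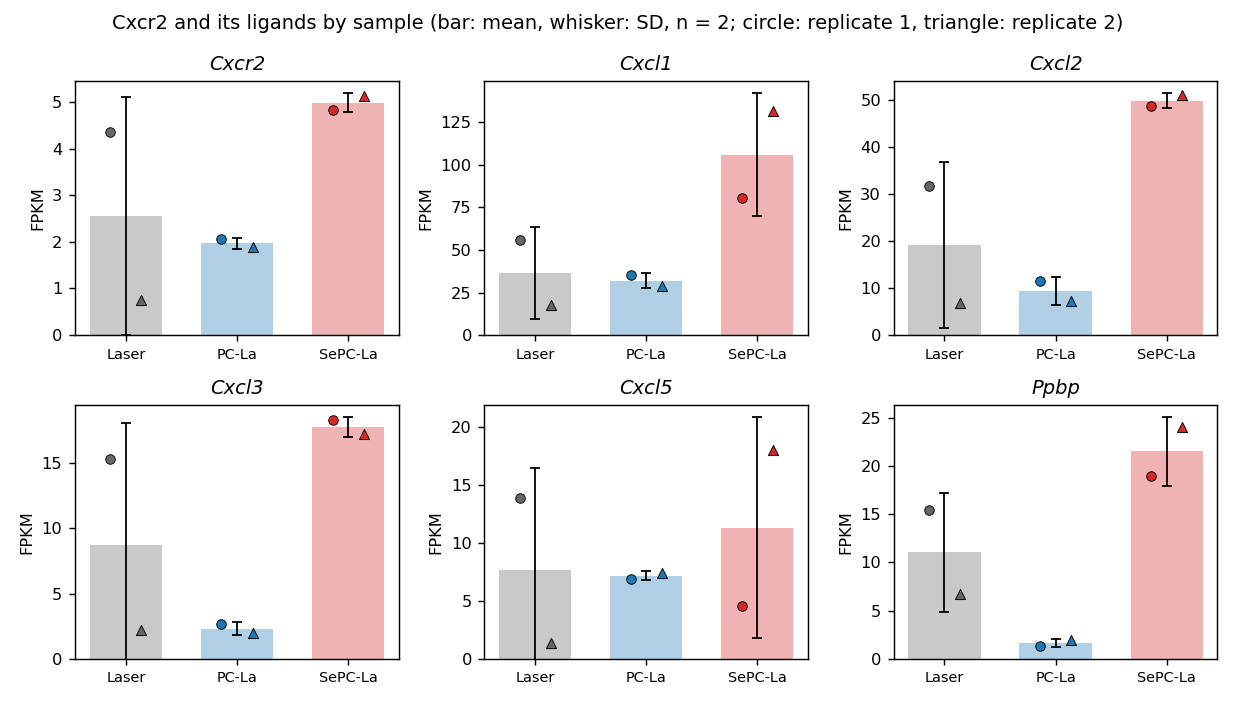
FPKM of Cxcr2 and its 5 ligands in the 6 samples, with bars for group means, whiskers for the SD of the 2 samples (cut at 0), circles for replicate 1 and triangles for replicate 2. For Cxcr2, Cxcl1, Cxcl2, Cxcl3 and Ppbp both SePC-La samples were above the other 4, and the PC-La samples of Ppbp (1.36 and 1.91) were the lowest.

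Other partners of the 10 genes did not meet the criterion, 0 of the 8 tested in any comparison. Csf3, which encodes G-CSF, the ligand of Csf3r, had 5.22 and 0.361 FPKM for Laser, 7.29 and 6.10 for PC-La and 5.93 and 24.2 for SePC-La, with log2 differences of 1.40 ± 0.93, 2.18 ± 0.93 and 0.78 ± 0.93 for PC-La against Laser, SePC-La against Laser and SePC-La against PC-La. Both treated groups lay above both Laser samples. The ligands of Fpr2 had SePC-La against Laser differences of -0.21 (Anxa1) and -0.54 (Saa3), with overlap between all groups. The receptors of calprotectin, Tlr4 and Ager, differed by -0.52 and -0.25, the Trem1 adaptor Tyrobp by 0.18, the Mmp9 inhibitor Timp1 by 0.60 and the G protein subunit Gnai2, which couples to chemokine receptors, by 0.055. Il17a, a cytokine known to induce Csf3 and Lcn2, was at 0 in all samples, and Slc22a17, a proposed Lcn2 receptor, was below the filter. The medians of the 8 were 0.052, -0.076 and 0.020.

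Of 6 transcription factors of the granulocyte lineage, 5 were tested and Cebpe was below the filter. Cebpd had 15.1 and 6.34 FPKM for Laser, 10.4 and 9.40 for PC-La and 20.0 and 27.9 for SePC-La, and rose by 1.18 ± 0.38 against either group. Cebpa had 7.67 and 6.32, 12.1 and 10.2, and 2.63 and 7.54 FPKM, and fell by 1.12 ± 0.39 in SePC-La against PC-La. Cebpb, Spi1 (which encodes PU.1) and Gfi1 met the criterion in no comparison, with SePC-La against Laser differences of 0.70, 0.30 and -0.22. The medians of the 5 were 0.12 for PC-La against Laser, 0.30 for SePC-La against Laser and -0.094 for SePC-La against PC-La.

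Markers of other cell types moved as well, and their part in the results above was not tested. The shares of all genes called and the medians of all genes, given above beside the 10 genes, apply to these lists too. All 10 macrophage genes were tested, and their summed level was 1082 and 1008 FPKM for Laser, 1455 and 1428 for PC-La and 511 and 1028 for SePC-La. Of these, 3 fell in SePC-La against PC-La (Apoe by 1.44, C1qa by 1.01 and C1qc by 1.01) and 0 met the criterion against Laser, with medians of 0.50, -0.39 and -0.89 for PC-La against Laser, SePC-La against Laser and SePC-La against PC-La. C1qb, the other abundant gene of the list, differed by -0.95 in the last of these.

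The 6 monocyte genes were tested, with medians of 0.41, -0.099 and -0.45. Their summed levels were 432 and 196 FPKM for Laser, 582 and 569 for PC-La and 171 and 211 for SePC-La. Fn1 made up most of each sum (351 and 134, 500 and 472, and 106 and 130 FPKM in the same order). Fn1 and Vcan were lowest in both SePC-La samples, F10 and Plac8 were highest in them, and Ly6c2 and Ccr2 were neither. In PC-La against Laser Fn1 rose (1.16) and F10 fell by 1.09, and in SePC-La against Laser Plac8 rose (1.19). In SePC-La against PC-La F10 rose (1.81), while Fn1 fell by 2.04, Vcan by 1.19 and Ccr2 by 1.05. Ptprc, which marks all leukocytes, had 7.66 and 3.92 FPKM for Laser, 8.86 and 10.8 for PC-La and 5.75 and 6.81 for SePC-La.

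Genes of red cells and 2 listed platelet genes also differed. The 5 erythroid genes summed to 127 and 13.6 FPKM for Laser, 263 and 361 for PC-La and 613 and 932 for SePC-La. Among them 3 rose in PC-La against Laser, 5 in SePC-La against Laser and 1 in SePC-La against PC-La, with medians of 2.67, 3.90 and 1.25. Laser 2 was the lowest sample of this sum as it was for 7 of the 10 neutrophil markers. Of 6 platelet genes, 2 were tested, Pf4 and Ppbp, the latter being also in the list of Cxcr2 ligands. Gp1bb was at 0 in all samples, and Itga2b, Gp1ba and Gp9 were below the filter. In SePC-La against PC-La, Itga2b and Gp1ba lay lower with no overlap (ratios of means of 0.596 and 0.660). Gp9 lay higher there (4.66). In PC-La against Laser the ratios of Itga2b, Gp1ba and Gp9 were 1.05, 1.31 and 0.135. Pf4 had 58.7 and 82.9 FPKM for Laser, 17.4 and 15.6 for PC-La and 72.4 and 121 for SePC-La. Both tested platelet genes fell in PC-La against Laser (median -2.06) and rose in SePC-La against PC-La (median 2.77). Neither met the criterion in SePC-La against Laser (median 0.71).

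The remaining lists held no gene that met the criterion. Mast cell and basophil genes summed to 152 and 2.79 FPKM for Laser, 28.1 and 14.1 for PC-La and 1.03 and 122 for SePC-La, so that the 2 highest and the 2 lowest sums all came from Laser and SePC-La (5 tested, medians of -0.37, -0.32 and 0.18). T cell genes summed to 2.53 to 8.37 FPKM (3 tested, medians of 0.40, 0.023 and -0.38), and endothelial genes to 18.3 to 32.4 FPKM (5 tested, medians of 0.16, 0.25 and 0.10). Eosinophil genes summed to 0.104 to 0.570 FPKM with Epx at 0 in all samples, and keratinocyte genes to 0.253 to 0.666 FPKM with Krt5, Krt14, Krt1, Krt6a and Lor at 0, so that 0 genes of either list were tested.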

How the data were processed

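Total RNA of 6 tumor samples was sequenced from NEBNext Ultra II libraries. The authors deposited 1 table of FPKM values, without naming the unit. When each value was scaled by exon length (GENCODE M21, GRCm38), 98.0% to 98.2% of them per sample came out as whole reads within 0.05, and 97.9% of genes did so in all 6 samples. The submitters' processing notes name HISAT2 2.0.5, HTSeq 0.9.1, DESeq 1.30.0 and build mm9 with no role or order, so coordinates from GRCm38 are those of the annotation and not of the alignment, and strand-specific counting is not given in the sources used here. FPKM was used as deposited.

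Genes that averaged 1 FPKM or more were tested with limma 3.58.1 (R 4.3.3) on log2(FPKM + 1), which understates the change of low genes, with group means, trend and robust moderation (6.40 degrees of freedom in most genes, including 3.40 prior ones). All 6 samples shared 1 fit, so comparisons share samples. The criterion was a log2 fold change over 1 in either direction with p under 0.05 before adjustment, with the Benjamini-Hochberg adjusted p over all 10853 genes beside it. Replicate and group came from the sample titles. The fit was tested on simulated data.

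The 10 genes and the gene lists were chosen with earlier results of these data in view. Named are the 10 genes, members of the lists of ligands, partners and transcription factors, genes of other lists that met the criterion or are abundant, and those most like the mean of the 10. Alternatives were pseudocounts of 0.1 and 0.5, other filters, scalings and moderation, the 4 samples compared alone, a replicate block, voom on recovered reads, other thresholds and each sample left out. Figures were drawn with matplotlib 3.10.9. Promoters are from RefSeq.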

Additional observations from a re-analysis of the deposited data

How the results depend on the processing

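Leaving out 1 sample at a time (the lone sample of a group was assumed to vary like the others) gave 71 to 664, 60 to 253 and 169 to 584 genes meeting the criterion in PC-La against Laser, SePC-La against Laser and SePC-La against PC-La, where all samples gave 140, 74 and 323. Among the 10 neutrophil markers the counts were 1 to 4, 1 to 5 and 4 to 7, where all samples gave 2, 4 and 5, and their median log2 difference was -0.58 to 0.53, 0.45 to 1.98 and 1.08 to 1.45. With a mean of at least 5 FPKM, 68, 46 and 186 genes met the criterion, and 1 marker did in PC-La against Laser, since Cxcr2, Trem1 and Fpr1 were then not tested. A pseudocount of 0.1 gave 129 and 488 genes in the comparisons of SePC-La with Laser and with PC-La, and voom on recovered reads gave 221 and 134 in the comparisons of PC-La and SePC-La with Laser. At an adjusted p under 0.05, 0 markers were called in each comparison. The cause of these differences was not tested.

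Of 471 values of single genes under an alternative, 418 kept their direction and side of the criterion, 20 lost and 16 gained the call, and 17 changed sign, 14 of them with a sample left out. With a sample left out, PC-La against Laser ran from -0.28 to 0.90 for S100a8, -0.54 to 2.26 for S100a9, -0.85 to 0.29 for Lcn2, -0.047 to 1.93 for Mmp9, -0.85 to 0.77 for Cxcr2, -0.63 to 1.14 for Csf3r, -0.88 to 1.23 for Retnlg and -0.47 to 0.29 for Trem1. SePC-La against Laser ran from -0.58 to 0.12 for Fpr1 and -0.21 to 0.51 for Fpr2, and SePC-La against PC-La from -0.87 to 1.02 for Mmp9. Cxcr2 in PC-La against Laser was 0.093 and 0.0063 with pseudocounts of 0.1 and 0.5 and 0.19 with voom. S100a9 in SePC-La against Laser also lost its call with a mean of at least 5 FPKM, with quantile normalization and with the 4 samples alone.

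Whether the replicate numbers pair the samples could not be settled with 2 samples a group. Deviations of same-numbered samples correlated at 0.0862 (Laser and PC-La), -0.428 (Laser and SePC-La) and -0.177 (PC-La and SePC-La). With the replicate block 133, 81 and 285 genes and 2, 5 and 5 markers met the criterion, Csf3r being the marker gained in SePC-La against Laser. Leaving out a sample for the lists of other neutrophil genes and Cxcr2 ligands was chosen after seeing the data. Other scalings moved the median of all genes by under 0.1.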
